A study of Mus musculus with 10 samples.

Results

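Genes of fat cells and of fatty acid handling were examined in mouse incisor mesenchyme, the pulp tissue of the lower front tooth, with and without its nerve. The list holds Fabp4, Fabp5, Adipoq, Plin1, Cfd, Lpl, Cidec, Pparg, Cebpa and Cd36. Members were found by an exact match of a probe set to a single gene symbol, and where a gene had several, the brightest over all arrays was used and the others served as a check. This gave 8 of the 10 listed genes, with 15 probe sets, out of 18193 genes in all; Plin1 and Cfd were not analysed here. The samples are 10 oligonucleotide expression arrays of total RNA from wild-type C57BL/6J mice at postnatal day 60. In each mouse the inferior alveolar nerve, which carries sensation from the lower teeth, had been resected on 1 side 2 weeks earlier, so that 5 arrays are from denervated incisors and 5 from contralateral incisors with the nerve in place. Sham-operated incisors are not among the groups, so loss of the nerve and the operation cannot be told apart. Arrays of equal number were treated as the incisors of a single mouse, on the grounds given with the processing.

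Fat cells store triglyceride in droplets and release fatty acids from them. Pparg and Cebpa encode the transcription factors that drive their differentiation, Adipoq encodes the hormone adiponectin, and Plin1 and Cidec encode proteins of the droplet surface. Lipoprotein lipase, encoded by Lpl, frees fatty acids from circulating lipoproteins, CD36 takes them up, and the binding proteins encoded by Fabp4 and Fabp5 carry them inside the cell. Of these, Adipoq, Plin1 and Cidec are largely restricted to fat cells. Fabp4 and Cd36 are also made by capillary endothelium and macrophages, Lpl by muscle, macrophages and other cells, and Fabp5 by epithelia and many other tissues. The pulp of a healthy incisor is not known as a fat depot.

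The comparison asked which of these genes differ between denervated and contralateral incisor mesenchyme. By the probe set used, Fabp4 was the member that set the groups apart. It was higher in the denervated incisor of 5 of 5 mice, by 2.19-fold on average. The 95% confidence interval was 1.39 to 3.46 (n = 5 arrays per group). By its second probe set Fabp4 was also higher in 5 of 5 mice, by 0.84 on the log2 scale, but the groups overlapped. Lpl was higher in the denervated incisor of mice 2 and 3 by 2.26 and 2.74 on the log2 scale, while mice 1 and 5 had lower values there. Fabp5 lay at a high level and differed little. Adipoq and Cidec stayed at the low end of the scale in both groups. No member passed the test across all genes. Limma's fit with Benjamini-Hochberg adjustment called 0 of 18193 genes (0.0%), with a smallest adjusted p of 0.790. At an unadjusted p under 0.05 it gave 1129 genes (6.21%), with Fabp4 as 1 of the 8 members. With the mouse as a block, 9.92% of genes had such a p, and Fabp4 had 0.00922. Its 95% interval was then wider, 0.37 to 1.90 on the log2 scale, against 0.48 to 1.79 without the block. The median difference of the 8 members, denervated minus contralateral, was 0.21 on the log2 scale, with 6 members above 0, beside 0.02 and 55.8% above 0 over all genes. Without denervated arrays 2 and 3 the members' median was -0.04, with 3 of 8 above 0. As the RNA is from whole tissue, a change in the number of cells of a type and a change in RNA per cell cannot be told apart.

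The log2 intensities ran from -0.16 to 13.2, with array medians between 1.48 and 1.54. They carry no detection calls, so a value near or below the array median cannot be told from background. Of all genes 43.5% had a mean of 4 or more, and of the 8 members this held for Fabp4, Fabp5 and Lpl. Values of different genes come from different probes and are not ranked against each other. The label of the tissue was checked against odontoblast genes, which make dentin: all 6 measured ones had a mean of 4 or more, and the mean of the list lay between 9.70 and 10.7 over the arrays. Markers of the dental epithelium, among them the enamel protein genes Ambn and Amelx, were high as well, though the tissue is labelled as mesenchyme: all 11 had a mean of 4 or more, and the list mean was between 8.47 and 9.24 on all arrays but denervated array 3, where it was 5.96. Denervated arrays 2 and 3 stood apart from the rest in markers of several other cell types, whose values are given with the members they touch.

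**Figure D1:**
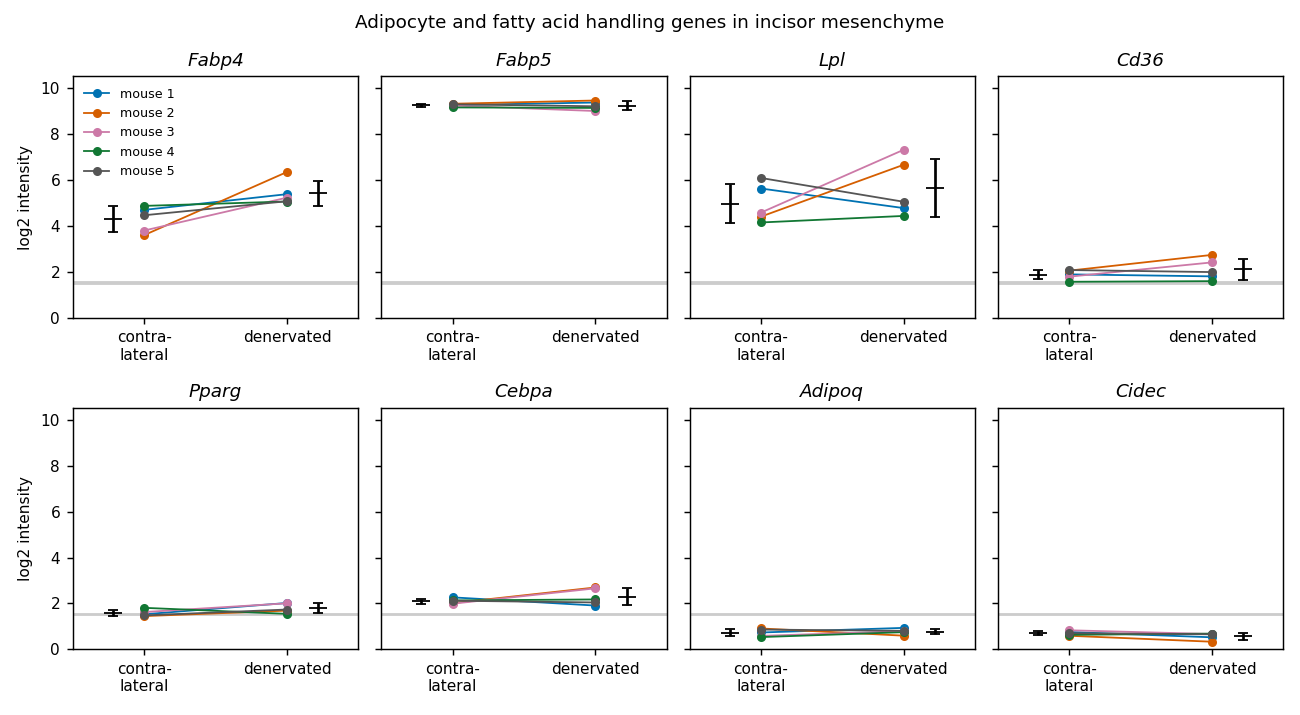
Log2 intensity of the 8 measured genes in the contralateral (left) and denervated (right) incisor of each of 5 mice, with lines joining the incisors of a mouse, black bars giving the group mean ± SD (n = 5) and the grey band spanning the array medians. Every denervated Fabp4 value is above every contralateral one, Lpl moves apart in mice 2 and 3, and Adipoq and Cidec lie under the grey band on all arrays.

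Fabp4 encodes the fatty acid-binding protein of fat cells, capillary endothelium and macrophages. Its log2 values in mice 1 to 5 were 5.37, 6.34, 5.22, 5.05 and 5.07 in the denervated incisors. In the contralateral incisors they were 4.69, 3.59, 3.79, 4.86 and 4.46. The groups did not overlap, the lowest denervated value of 5.05 lying above the highest contralateral value of 4.86. Over all genes, 0.528% had groups that did not overlap in this direction, and 6.58% were higher in 5 of 5 mice; among genes with a mean of 4 or more these shares were 0.72% and 9.18%. The means were 5.41 ± 0.54 and 4.28 ± 0.56 (SD, n = 5), a difference of 1.13 ± 0.30 (SE) by limma, with an unadjusted p of 0.0029 and an adjusted p of 0.790. An exact two-sided permutation over the 10 arrays gave p = 0.00794, the smallest that 252 arrangements allow, and 0.762 after adjustment over all genes. This permutation does not use the pairing by mouse. With the pairing, the exact two-sided test over 32 sign changes gave p = 0.0625, the smallest it allows, so that it cannot pass 0.05 with 5 mice. Of the 7919 genes with a mean of 4 or more, 3 had a larger difference in this direction.

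The size of the Fabp4 difference varied widely among the mice. It was 2.75 in mouse 2 and 1.43 in mouse 3, and 0.68, 0.19 and 0.61 in mice 1, 4 and 5. The contralateral arrays alone already had an SD larger than that of 98.3% of genes with a mean of 4 or more. The gene thus also varied on the side with the nerve in place, in mice operated on the other side. In mice 2 and 3 the contralateral values were the 2 lowest of their group, and the denervated values of the other 4 mice than mouse 2 lay between 5.05 and 5.37. Without denervated arrays 2 and 3 the difference was 0.89, or 1.85-fold. With all arrays of those mice left out and the mouse as a block it was 0.49. By this probe set the largest difference was that of mouse 2.

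A second probe set of Fabp4 served as a check. Its denervated values lay between 4.83 and 5.56 and its contralateral values between 3.80 and 4.84, so that the groups overlapped at their ends, with denervated array 4 just under the highest contralateral array. Denervated array 2, the highest by the main probe set at 6.34, was at 5.04 here, below denervated arrays 1, 3 and 5. It was higher in 5 of 5 mice, by 0.73, 1.25, 1.30, 0.09 and 0.85, with a mean difference of 0.84. Its largest difference was that of mouse 3, and in mouse 2 it was less than the 2.75 of the main probe set. The correlation of both probe sets over the 10 arrays, given as a description, was r = 0.78. The remaining 2 probe sets of Fabp4 had means of 0.81 and 0.60, at the low end of the scale, and differences of 0.04 and 0.08.

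Fabp5 encodes the binding protein of epidermis and of many other cell types. Its log2 values in mice 1 to 5 were 9.37, 9.45, 8.996, 9.13 and 9.20 in the denervated incisors and 9.26, 9.31, 9.23, 9.15 and 9.29 in the contralateral ones. The groups overlapped fully, the contralateral range lying inside the denervated one. The difference was -0.02 ± 0.09 (SE), 0.04 without denervated array 3, and its 95% interval of -0.22 to 0.18 leaves out changes of the size seen for Fabp4. The gene was steady: its contralateral SD of 0.06 was larger than that of only 6.93% of the genes with a mean of 4 or more. Denervated array 3, the lowest at 8.996, is also the array that was low in dental epithelium markers, with a list mean of 5.96 against 8.47 to 9.24 on the other 9 arrays; the part of these cells in the Fabp5 value was not tested. The second Fabp5 probe set had a difference of -4.8e-05 and did not repeat the low value. Denervated array 3 was at 7.33 there and not the lowest, and mouse 3 differed by 0.07, against -0.24 by the main probe set.

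Lpl encodes lipoprotein lipase, which is secreted and acts on the vessel wall. Its log2 values in mice 1 to 5 were 4.77, 6.66, 7.31, 4.43 and 5.04 in the denervated incisors. In the contralateral incisors they were 5.62, 4.40, 4.57, 4.14 and 6.08. Denervated arrays 2 and 3 were the highest of all, contralateral arrays 5 and 1 came next, and the groups overlapped. The differences within mice were -0.85, 2.26, 2.74, 0.28 and -1.04, so 3 mice had higher and 2 lower values on the denervated side. The mean difference of 0.68 ± 0.58 (SE) had a 95% interval of -0.59 to 1.95 and an adjusted p of 0.830 in limma's fit. Without denervated arrays 2 and 3 it turned to -0.22. Lpl varied more than nearly all genes: its SD over the contralateral arrays, 0.84, was larger than that of 99.5% of genes with a mean of 4 or more. The second Lpl probe set followed the first closely (r = 0.96 over the 10 arrays, a description), with differences of -0.34, 1.64, 2.30, -0.07 and -1.14 in mice 1 to 5.

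Cd36, which encodes a fatty acid uptake receptor of endothelium, macrophages and fat cells, lay just above the array medians. Its log2 values in mice 1 to 5 were 1.79, 2.73, 2.40, 1.59 and 1.98 in the denervated incisors and 1.88, 2.04, 1.78, 1.56 and 2.07 in the contralateral ones. Denervated arrays 2 and 3 were the highest, as for Lpl, and the other 3 overlapped with the contralateral arrays. The mean difference was 0.23 ± 0.20 (SE), with an adjusted p of 0.831 in limma's fit, and -0.08 without these 2 arrays. The second probe set differed by 0.28, with 1.39 in mouse 2 and 0.31 in mouse 3, and the third by 0.05 at a mean of 0.57.

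The transcription factor genes were low. Pparg had values of 2.02, 1.69, 2.01, 1.55 and 1.74 in the denervated incisors of mice 1 to 5 and 1.53, 1.45, 1.63, 1.81 and 1.48 in the contralateral ones. It was higher in 4 of 5 mice, lower by 0.26 in mouse 4, and the groups overlapped. Its difference of 0.22 ± 0.11 (SE), unadjusted p 0.0676 and adjusted p 0.790 by limma, is measured close to the array medians. Cebpa had values of 1.91, 2.70, 2.66, 2.18 and 2.04 in the denervated incisors and 2.27, 2.01, 1.99, 2.13 and 2.12 in the contralateral ones. Denervated arrays 2 and 3 again were the highest, and the remaining 3 lay around the contralateral values. The difference was 0.19 ± 0.15 (SE), and -0.06 without these 2 arrays.

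**Figure D2:**
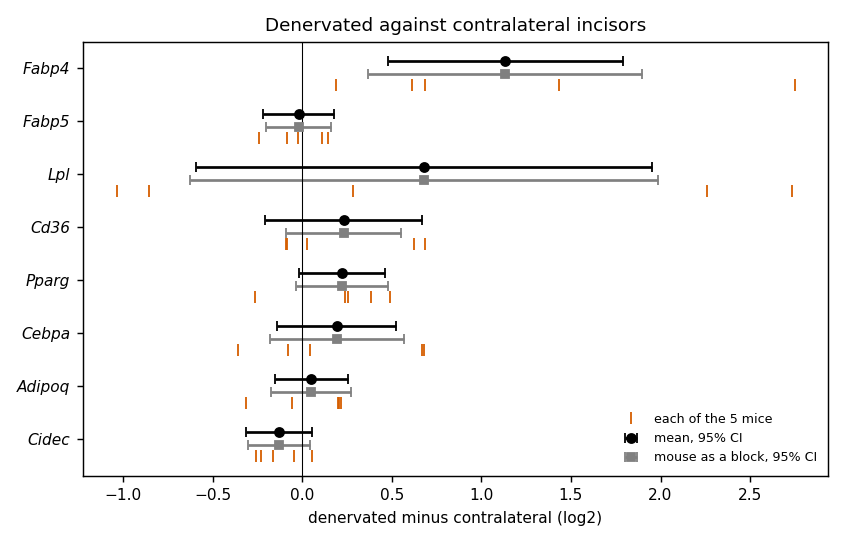
Difference between denervated and contralateral incisors (log2) of the 8 measured genes, with black circles and bars for the mean and 95% confidence interval, grey squares and bars for the blocked fit (mouse as a term) and orange ticks for the 5 mice. The interval of Fabp4, 0.48 to 1.79, is the only one of the 8 that leaves out 0, and Lpl has the widest spread, from -1.04 to 2.74.

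The measured genes that are largely restricted to fat cells gave no sign of them above background in either group. Adipoq lay between 0.60 and 0.94 in the denervated and between 0.54 and 0.91 in the contralateral incisors, below the array median on 10 of 10 arrays. Its difference was 0.05 (95% interval -0.15 to 0.26). Cidec lay between 0.33 and 0.69 and between 0.59 and 0.83, also below the median on 10 of 10 arrays, with a difference of -0.13 (-0.32 to 0.06). Over all genes 29.3% were below the median on 10 of 10 arrays. The hormone genes Lep, for leptin, and Retn, for resistin, had means of 0.57 and 0.68 and were below it on 10 of 10 arrays as well. So were Plin4, a further droplet coat gene, Aqp7, a glycerol channel gene, and Cidea. Lipe, which encodes hormone-sensitive lipase, had a mean of 2.08 and was below the array median on 0 of 10 arrays. Of the 9 measured adipocyte markers only Fabp4 had a mean of 4 or more. Without it, the mean of the list ranged from 0.90 to 0.95 in the denervated and from 0.89 to 0.99 in the contralateral incisors, and it differed by no more than 0.06 in any mouse. The brown fat gene Ucp1 lay below the array median on 10 of 10 arrays. The name of the list as adipocyte genes is thus not borne out by the markers measured here, with Plin1 and Cfd not analysed. The members with a mean of 4 or more were the transcripts of Fabp4, Fabp5 and Lpl.

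Further genes of fatty acid metabolism were taken from a list of 63, of which 60 were measured and 34 had a mean of 4 or more. By limma's adjusted p 0 of 60 passed in either direction. In the fit without the mouse as a term there were 1 higher and 1 lower gene at an unadjusted p under 0.05, against 4.1% higher and 2.11% lower over all genes. With the mouse as a block, 9.92% of all genes had such a p. Of the 60 genes, these were Aoc3, Cebpb and Angptl4, all higher, and Vldlr, which was lower. The median difference was 0.04, with 38 of 60 above 0, beside 55.8% of all genes and 63.9% of those with a mean of 4 or more. The count of genes above 0 was thus close to the background. The genes named below were chosen by a rule on the size of the difference, the smallest included, or as fixed names, and none of them passed the test.

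Among genes of fatty acid uptake, 6 of 9 were above 0, with a median of 0.14, or -0.09 without denervated arrays 2 and 3. Angptl4, which encodes a secreted inhibitor of lipoprotein lipase, had a denervated mean of 6.62 ± 1.01 and a contralateral mean of 6.21 ± 0.82 (SD, n = 5). Its differences in mice 1 to 5 were -0.02, 0.76, 0.84, 0.14 and 0.34, the largest in the mice where Lpl differed most. With the mouse as a block, limma gave Angptl4 an unadjusted p of 0.017 and an adjusted p of 0.436. Gpihbp1, which encodes the capillary anchor of lipoprotein lipase, had a mean difference of -0.03 ± 0.28 (SE). Vldlr, a lipoprotein receptor gene, was lower by -0.30 ± 0.12 (SE), in 4 of 5 mice, with an unadjusted p of 0.0263 and an adjusted p of 0.790 by limma; it is the lower gene counted above. Cav1, which encodes the coat protein of caveolae, differed by 0.03 ± 0.23.

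Transcription factors of lipid metabolism had 7 of 10 members above 0 and a median of 0.06. Cebpb, an early factor of fat cell differentiation that also acts in inflammation, was higher in 5 of 5 mice, by 0.25, 0.15, 0.36, 0.45 and 0.44. Its groups overlapped, at 9.07 ± 0.33 and 8.75 ± 0.42 (SD, n = 5), and its adjusted p in limma's fit was 0.804. With the mouse as a block, limma gave Cebpb an unadjusted p of 0.00238 and an adjusted p of 0.355. Cebpd differed by 0.17 ± 0.16 (SE), and Ppard, which encodes a receptor that senses fatty acids, by 0.02 ± 0.11.

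Genes of fatty acid and triglyceride synthesis had 8 of 13 above 0 and a median of 0.02. Lpin1, a phosphatidate phosphatase gene, differed by 0.27 ± 0.30 (SE), the fatty acid synthase gene Fasn by 0.16 ± 0.10 and the acetyl-CoA carboxylase gene Acaca by -0.01 ± 0.12. Genes of droplets and lipolysis had 4 of 10 above 0 and a median of -0.05. Plin2, the droplet coat gene found in most cell types, had 7.58 ± 0.35 and 7.54 ± 0.28 (SD, n = 5). G0s2, which encodes an inhibitor of triglyceride lipase, differed by -0.34 ± 0.20 (SE), with -1.22 in mouse 2, while the monoglyceride lipase gene Mgll differed by -0.16 ± 0.11 and the triglyceride lipase gene Pnpla2 by 0.01 ± 0.11. Fatty acid oxidation had 8 of 9 genes above 0 and a median of 0.08, or 5 of 9 and 0.03 without denervated arrays 2 and 3. Of all genes with a mean of 4 or more, 63.9% were above 0. Cpt1a, which controls entry into mitochondria, differed by 0.25 ± 0.23, Cpt2 by 0.23 ± 0.16 and the dehydrogenase gene Acadl by 0.06 ± 0.12.

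Adipokine and fat cell surface genes had 5 of 9 above 0 and a median of 0.03. The adiponectin receptor genes Adipor1 and Adipor2 differed by -0.06 ± 0.08 and -0.13 ± 0.09 (SE). The higher gene counted above was Aoc3, an amine oxidase gene of fat cells and smooth muscle, which was chosen for mention after its values were seen. It differed by 0.58, 2.01, 1.56, 0.55 and 0.93 in mice 1 to 5, an order of sizes that resembles that of Fabp4 in putting mice 2 and 3 first. The mean of Aoc3 was 3.42, below the level of 4, and its adjusted p by limma was 0.790.

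**Figure D3:**
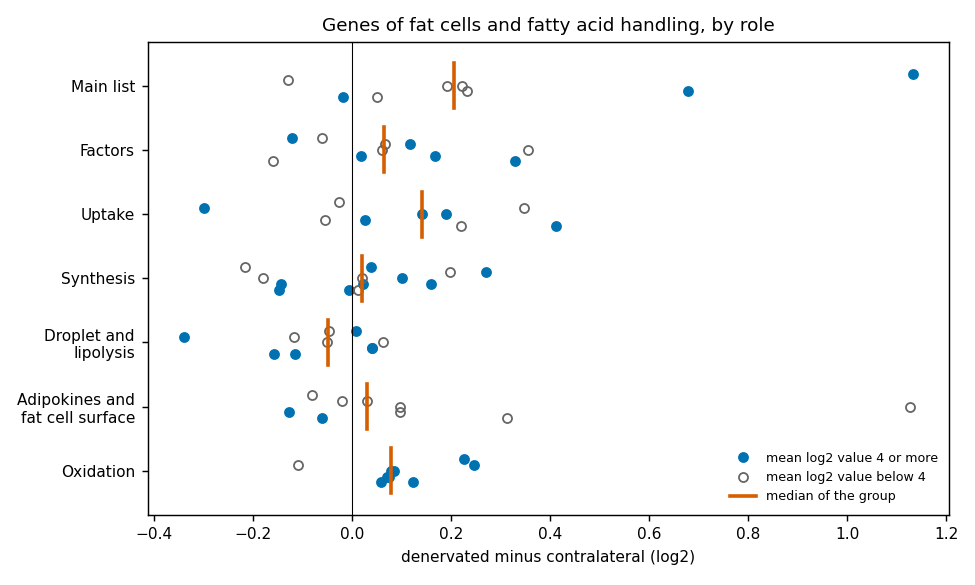
Difference between denervated and contralateral incisors (log2) for the 8 measured genes of the main list and for 60 further genes by role, with filled circles for a mean log2 value of 4 or more, open circles for lower means and orange lines for group medians. Fabp4 and Lpl lie at 1.13 and 0.68 and the open circle at 1.13 is Aoc3, whereas the group medians of the 6 further roles lie between -0.05 and 0.14.

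Markers of cell types that can make these transcripts were set beside Fabp4 and Lpl. Over all genes, 55.8% were higher on average and 6.58% were higher in 5 of 5 mice. Among genes with a mean of 4 or more these shares were 63.9% and 9.18%. The macrophage list had 12 of 12 markers higher on average, 9 of them in 5 of 5 mice, and its mean ranged from 5.90 to 6.75 in the denervated and from 5.62 to 5.85 in the contralateral incisors. Within mice 1 to 5 this mean differed by 0.22, 0.78, 0.96, 0.17 and 0.31. The list of pericytes and smooth muscle had 9 of 10 markers higher, 5 of them in 5 of 5 mice. Its mean had ranges of 5.40 to 6.41 and 5.20 to 5.51, and differed by 0.12, 1.04, 0.75, 0.15 and -0.11. The endothelial list had 11 of 12 markers higher, 0 of them in 5 of 5 mice. Its mean had ranges of 4.23 to 5.06 and 4.26 to 4.65, and its difference was above 0 in mice 2 and 3 alone, at 0.58 and 0.55. Leaving out denervated arrays 2 and 3, 11 of 12 macrophage markers, 6 of 10 markers of pericytes and smooth muscle and 2 of 12 endothelial markers were higher. Lists of this kind were already known to shift in these data, so this is no independent support. As with Fabp4, the macrophage list was higher in all 5 mice and most in mice 2 and 3. The list of pericytes and smooth muscle also differed most in mice 2 and 3, and was lower in mouse 5. The part of any of these cell types in the Fabp4 difference was not tested.

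Lpl moved with other lists. The neutrophil list, led by the calprotectin genes S100a8 and S100a9, had 7 of 7 markers higher on average, with 1 of 7 at a mean of 4 or more. Of the 7, 1 was higher without denervated arrays 2 and 3. Its mean ranged from 1.59 to 4.04 in the denervated and from 1.80 to 2.43 in the contralateral incisors. Within mice 1 to 5 it differed by -0.78, 0.94, 2.20, -0.22 and -0.21, and for Lpl the signs were the same in all mice but mouse 4. Over the 10 arrays, which come from 5 mice, Lpl and the mean of this list correlated at r = 0.92, or 0.85 without denervated arrays 2 and 3, the highest of the 13 lists in both cases. For the endothelial list these values were 0.85 and 0.53, and for the macrophage list 0.68 and -0.68. For Fabp4 they were 0.36 and -0.14 with the neutrophil list, 0.66 and 0.49 with the macrophage list, 0.79 and 0.61 with the list of pericytes and smooth muscle, and 0.78 and 0.57 with the list of fibroblasts and preadipocytes. That last list had 6 of 8 markers higher on average, and 3 of 8 without denervated arrays 2 and 3. These are descriptions of 10 arrays and carry no test. The Schwann cell list, with 7 of 8 markers higher on average, ranged from 2.50 to 5.36 and from 2.60 to 3.09, with its highest value on denervated array 2, where the main Fabp4 probe set was highest too. Within mice 1 to 5 it differed by -0.28, 2.57, 0.84, 0.02 and -0.15, and without denervated arrays 2 and 3 its median difference was -0.09, with 3 of 8 markers higher. The skeletal muscle list, with 5 of 10 markers higher, had no marker at a mean of 4 or more, and its mean stayed between 1.06 and 1.22 on all arrays. What these other cells contribute to Lpl was not tested.

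**Figure D4:**
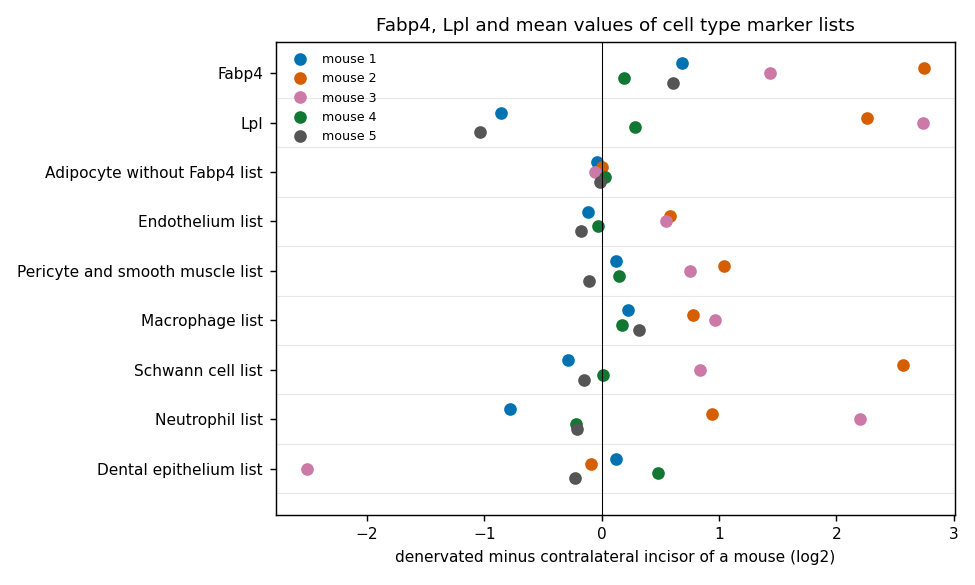
Difference between the denervated and contralateral incisor of each mouse (log2) for Fabp4, for Lpl and for the mean log2 value of 7 marker lists, with 1 colour per mouse. Mice 2 and 3 lie farthest to the right for Fabp4, Lpl and most lists, and the adipocyte list without Fabp4 stays within 0.06 of 0.

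The genes whose levels ran most like those of a member were sought by Pearson's r over the 10 arrays, among genes with a mean of 4 or more. For Fabp4 they were Syngr2, a vesicle protein gene (r = 0.93), the collagen gene Col8a1 (0.93) and the homeobox gene Dlx5 (0.92). Col8a1 differed by 0.16, 1.55, 1.23, 0.22 and 0.13 in mice 1 to 5. For Lpl they were the neural adhesion gene Ncam1 (0.96), Rab43 (0.94) and Rtf2 (0.94), and Ncam1 differed by -0.41, 0.60, 1.02, 0.11 and -0.47, with the same sign as Lpl in every mouse. Ncam1 was chosen for its r with Lpl over these same arrays, so the shared signs add no support. For Fabp5 they were Utp15, Ktn1 and Mgst3, at 0.92, 0.90 and 0.89. Without denervated arrays 2 and 3, these 9 values of r lay between 0.73 and 0.91. All 9 genes were chosen for their r over the 10 arrays, so neither these values nor the Col8a1 differences add support. Among the members themselves Fabp4 and Lpl correlated at 0.50, or 0.08 without denervated arrays 2 and 3, and Lpl with Cd36 at 0.84, or 0.64.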

How the data were processed

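Total RNA of 10 incisor samples was measured on expression arrays. Each probe set has 1 log2 intensity per array, as the authors deposited it (the scale was read from the values). The submitters' processing notes name RMA, which normalizes between arrays, and give no version. The variant of RMA is not given in the sources used here, and low values depend on it. The number of arrays limits the precision. Of 45101 probe sets, 64 controls were left out; 34945 name 1 gene symbol in the supplied annotation, 932 several and 9160 none, which gave 18193 genes.

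Groups were compared with limma 3.58.1 (lmFit, eBayes) in R 4.3.3, two-sided, with Benjamini-Hochberg adjustment over all genes and a threshold of 0.05. Each difference is given with limma's standard error. Every signed difference is denervated minus contralateral. The mouse was not a term. The design names 5 mice with a denervated and a contralateral incisor each. Deviations from the group means correlated between 0.18 and 0.57 in the 5 pairs of equal number and between -0.41 and 0.22 in the 20 others. Of the 5 denervated arrays, 4 correlated best with the contralateral array of their own number. Denervated array 3 did not, at 0.18 with contralateral array 3 and 0.22 with contralateral array 1. Equal numbers were taken to mark a mouse, which is least sure for mouse 3. The limma fit was tested on simulated data.

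The members, the gene lists and the alternatives were chosen with earlier results of these data known. The rule for named genes takes all members, from each role group the 2 largest and the smallest difference among genes with a mean of 4 or more, 6 fixed genes (Gpihbp1, Plin2, Lep, Retn, Lipe, Ucp1), and the 3 genes most correlated with each member of that level. Lists for brown fat, cartilage and osteoblast, erythroid and fibroblast cells had median differences of 0.03, -0.01, -0.01 and 0.09, and odontoblast, skeletal muscle and dental epithelium lists of -0.23, -0.01 and -0.40. The last was 0.02 without denervated arrays 2 and 3, with 7 of 11 markers higher, and in mouse 3 the epithelium list mean differed by -2.51.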

Additional observations from a re-analysis of the deposited data

Results flagged for a closer look

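In groups of 5 arrays, the highest or lowest array was compared with the rest for the 8 measured genes and for the 23 named genes of fatty acid metabolism, 62 groups in all. Chance alone sets about 1 in 20 such groups apart, and 3 were found. Fabp4 was at 6.34 on denervated array 2, with the other denervated arrays between 5.05 and 5.37; its second probe set was at 5.04 on that array, inside the range of the other denervated arrays. Lpin1 was at 3.32 on contralateral array 4, with the others between 4.07 and 4.35. Ucp1 was at 0.66 on contralateral array 2, with the others between 0.83 and 0.87, all at the low end of the scale.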

How the results depend on the processing

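No gene and no member passed limma's adjusted threshold under any of the 20 alternatives across all genes, with smallest adjusted p values between 0.234 and 0.989. The fit with the replicate block, which pairs the incisors of a mouse, gave 0 genes too, with 1805 at an unadjusted p under 0.05 (9.92%), and Fabp4 at an adjusted p of 0.419; it changed no call. The adjusted p of Fabp4 lay between 0.419 and 0.989 over its 23 alternatives, and its difference between 0.04 and 1.28, above 0 in all, the lowest from a probe set at the low end of the scale. Pparg, Adipoq and Cidec kept their direction in all 19 alternatives of each. Without denervated arrays 2 and 3, Lpl turned to -0.22, Cebpa to -0.0621 and Cd36 to -0.08. With both arrays of mice 2 and 3 left out and the replicate block, an alternative added after seeing the data, they were -0.53, -0.13 and -0.0495. Fabp5 was 0.0009 with array weights and between -0.0758 and 0.0388 with 1 array left out. The members' median lay between -0.04 and 0.25 over its 19 alternatives, and between 0.09 and 0.25 with 1 array left out; with only genes of a mean of 4 or more it was not computed, since 3 members remain. Low signal limits Adipoq, Cidec, Pparg, Cebpa and Cd36. Adding 16 to the linear intensity brought the differences of Pparg and Cidec to 0.04 and -0.01. The same step lowered the difference of Fabp4 from 1.13 to 0.72 and that of Lpl from 0.68 to 0.52. An added constant shrinks log2 differences by its arithmetic, most at low signal, so the smaller sizes are no test of them.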
